A study of Mus musculus with 31 samples.

Results

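Transcripts of 49 enzymes of amino acid breakdown were followed in mouse liver across mice lacking ChREBP, mice lacking only its shorter isoform ChREBPβ, and the WT littermates of each line. The enzymes were taken by name from a list covering the branched-chain, phenylalanine-tyrosine, tryptophan, serine-glycine-threonine, proline, lysine, histidine and glutamate-alanine-aspartate routes. All 49 names were found, on 96 probes of the array, and 92 of these probes, with at least 1 for each name, passed the filter on dim spots and were tested among 23968 gene names in all. Every one of the 49 was read above background in all mice of the 4 groups.

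In liver, each amino acid has its own chain of enzymes, which removes the nitrogen by transamination, deamination or dehydration and passes the carbon skeleton on to pyruvate, acetyl-CoA, acetoacetate or intermediates of the citric acid cycle. Most of these enzymes work in hepatocyte mitochondria, and several of the entry enzymes, among them tyrosine aminotransferase, tryptophan dioxygenase and serine dehydratase, are classical targets of glucocorticoids and glucagon. ChREBP, the product of the Mlxipl gene, is a glucose-responsive transcription factor best known for activating glycolytic and lipogenic genes, and ChREBPβ arises from an alternative promoter and start exon of the same gene.

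Liver RNA of C57BL6/J males was hybridized to Agilent arrays in 1 color, each array holding 1 sample. Every mouse had gone without food for 24 hours and was then refed for 18 hours with glucose at 20% in the drinking water, so that all groups share the refed state. The groups were 7 total ChREBP-KO mice, in which Mlxipl is inactivated and both isoforms are missing, 8 arrays of their WT littermates, 8 ChREBPβ-deficient mice made by CRISPR/Cas9 deletion of the β-specific exon, and 8 of their WT littermates. Both deletions affect the whole body, and the WT mice of each line were compared with the knockouts of that line.

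WT replicates 7 and 8 of the total line differed from each other by less than the noise between spots of 1 probe. The SD of their log2 difference was 0.092 over 15894 probes, against 0.191 expected from repeated spots on the same arrays and 0.175 to 0.413 for the other pairs among the 105 pairs within groups. Their mean was counted as 1 sample, which left 7 WT samples in the total line and 30 samples in all. ChREBPβ-deficient replicates 1 and 4, whose SD was 0.175, also lay under the expected 0.191 and were kept as separate samples. On the probe with the strongest signal, Mlxipl was 14.12 ± 0.13 in total ChREBP-KO mice against 15.29 ± 0.13 in WT littermates (log2 signal, mean ± SD, n = 7 and 7), and 14.64 ± 0.14 against 15.09 ± 0.17 in the β line (n = 8 and 8). On this probe the mice of each knockout group lay below all WT littermates. Of its other probes, 1 differed by -0.61 in total ChREBP-KO mice and by -0.46 in the β line, with overlap in both, and 1 by -0.04 and -0.06, neither of which passed the test. The position of the probes relative to the deleted exons was not given in the sources used here, so that they are a limited check of the labels. The remaining signal in total ChREBP-KO mice is above background. Hepatocyte markers had a summed log2 signal of 20.22 to 20.35 over 6 of the 7 listed genes in all groups. After quantile normalization Alb stood at 18.96 with an SD of 0 in every group, so that this sum says little on hepatocyte content. Of these markers, Cps1 and Ttr were called higher in total ChREBP-KO mice, by 0.45 and 0.17.

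Transcripts of 17 of the 49 enzymes were higher and 8 were lower in total ChREBP-KO than in WT littermates, and 24 did not pass the test. Across all genes tested, 13.5% were called higher and 14.1% lower, so that the share of enzymes called lower was close to the background and the share called higher was not. The background was not matched for signal, and the list was chosen with earlier results of these data known, so that these shares are descriptions. The higher enzymes included Tdo2, which opens the tryptophan route, Ivd of leucine breakdown, and Gpt, the cytosolic alanine aminotransferase, and the lower enzymes included Got1, the cytosolic aspartate aminotransferase, and Haao of the kynurenine route. The median difference was 0.13 (log2) over the 49 enzymes and 0.01 over all genes. A call is a Benjamini-Hochberg adjusted p under 0.05 in limma over all 36059 probes, and each gene is read by its probe with the highest mean signal. Values are log2 signal after quantile normalization, they are not comparable between genes, and a difference is knockout minus WT littermates.

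Most differences were small. With a fold change of at least 1.5 required as well, 3 enzymes were higher (Tdo2, Ivd and Gpt) and 1 was lower (Got1), where 2.84% of all genes were higher and 3.56% lower. The 7 knockout mice lay above all WT littermates for 5 enzymes and below all of them for 4, and such separation held for 3.46% and 4.6% of all genes. At an unadjusted p under 0.05, 32 of the 49 enzymes and 37.2% of all genes passed. The plot of values by mouse shows these 9 enzymes.

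**Figure D1:**
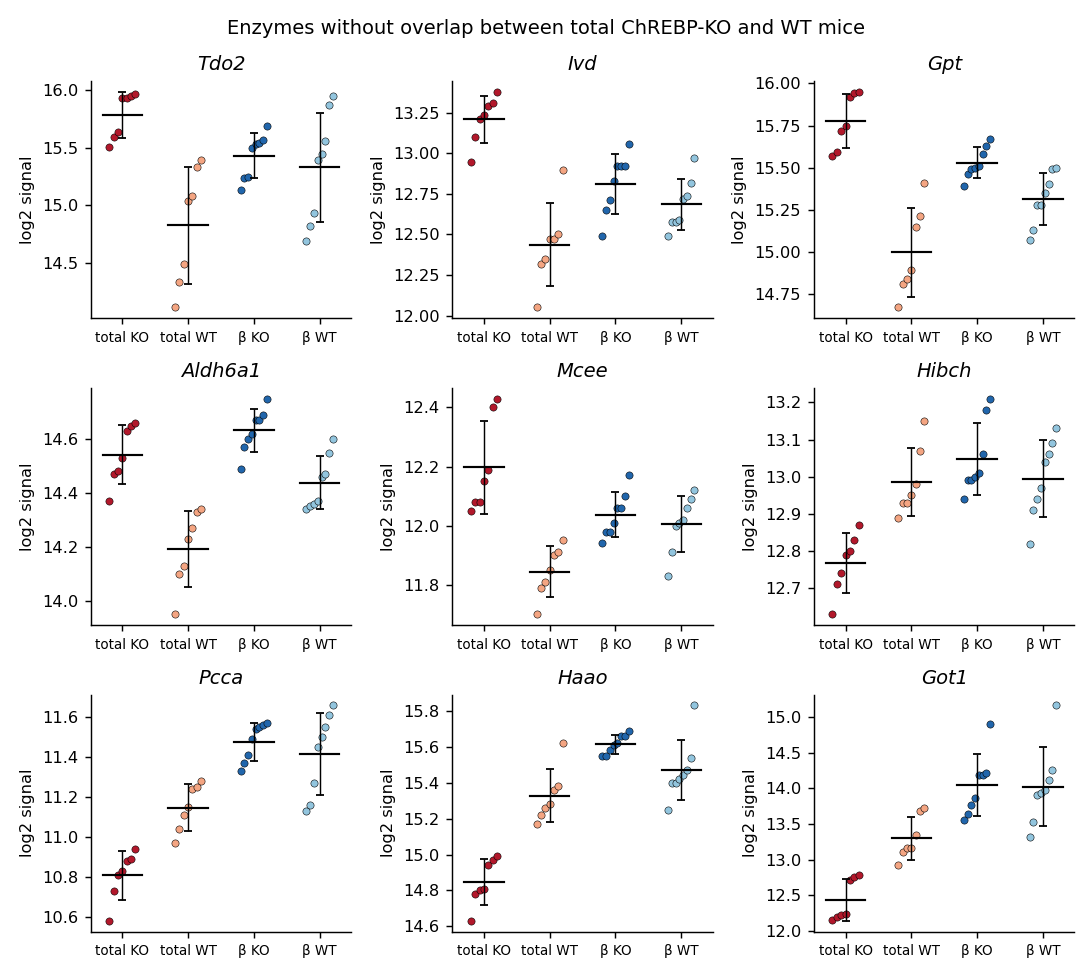
Log2 signal of the 9 enzymes whose total ChREBP-KO and WT mice did not overlap, with 1 point per sample (7 total KO, 7 total WT, 8 β KO, 8 β WT), lines at the group means and bars of 1 SD. Tdo2, Ivd, Gpt, Aldh6a1 and Mcee lie higher and Hibch, Pcca, Haao and Got1 lie lower in total KO, while the knockout and WT mice of the β line overlap in all 9.

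The promoters of 42 of the 49 genes were found in RefSeq sequence of build GRCm38.p6, and Gls2, Gpt, Kynu, Mut, Sds, Sdsl and Tdh were not matched. In the 250 bases before each start, both strands were searched for the E-box CACGTG, for the carbohydrate response element, a pair of such boxes that ChREBP binds with its partner MLX, for TATAAA and for CCAAT. The E-box was found in 1 of the 42 genes, Mccc2, and in 6.02% of 32851 promoters of all genes, and the paired element, searched as exact letters, was found in none of either. TATAAA was found in 5 of the 42 genes and in 12.4% of all promoters, and CCAAT in 22 of the 42 and in 33.8%. The sequences of Ivd and Tdo2, 2 of the enzymes with the largest rise, of Got1 and Haao, the 2 with the largest fall among those without overlap, and of Mccc2 are shown 5′ to 3′ so that these windows can be compared, with the E-box, TATAAA and CCAAT in capitals on either strand.
Ivd, chr2:118861744-118861993, plus strand: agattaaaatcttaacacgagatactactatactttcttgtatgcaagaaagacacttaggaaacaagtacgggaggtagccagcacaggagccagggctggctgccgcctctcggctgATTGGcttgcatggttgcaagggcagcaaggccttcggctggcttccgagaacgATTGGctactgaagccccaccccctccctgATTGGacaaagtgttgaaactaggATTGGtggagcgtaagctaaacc
Tdo2, chr3:81975729-81975978, minus strand: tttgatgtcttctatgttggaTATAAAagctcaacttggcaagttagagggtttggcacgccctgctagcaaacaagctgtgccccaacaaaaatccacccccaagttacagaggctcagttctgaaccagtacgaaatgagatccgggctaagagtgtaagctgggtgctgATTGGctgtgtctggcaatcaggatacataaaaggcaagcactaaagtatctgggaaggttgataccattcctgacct
Got1, chr19:43524606-43524855, minus strand: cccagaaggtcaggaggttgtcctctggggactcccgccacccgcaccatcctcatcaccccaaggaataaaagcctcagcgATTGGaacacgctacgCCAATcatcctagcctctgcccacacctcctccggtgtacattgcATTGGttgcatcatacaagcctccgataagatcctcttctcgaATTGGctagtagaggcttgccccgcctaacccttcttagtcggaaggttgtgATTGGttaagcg
Haao, chr17:83846791-83847040, minus strand: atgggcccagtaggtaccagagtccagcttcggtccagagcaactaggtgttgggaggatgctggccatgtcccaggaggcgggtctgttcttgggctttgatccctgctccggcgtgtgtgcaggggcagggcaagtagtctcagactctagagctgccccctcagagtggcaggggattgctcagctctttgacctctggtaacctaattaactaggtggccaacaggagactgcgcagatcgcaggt
Mccc2, chr13:100015640-100015889, minus strand: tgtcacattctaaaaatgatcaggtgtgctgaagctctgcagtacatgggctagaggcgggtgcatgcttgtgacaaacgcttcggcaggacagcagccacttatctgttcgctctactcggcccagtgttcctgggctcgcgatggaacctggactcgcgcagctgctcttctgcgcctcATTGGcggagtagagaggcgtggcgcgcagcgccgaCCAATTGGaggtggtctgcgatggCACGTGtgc
The Ivd window holds 4 CCAAT motifs and no E-box, the Tdo2 window holds TATAAA and CCAAT, the Got1 window holds several CCAAT motifs, and the Haao window holds none of these 3 motifs. The Mccc2 window holds CCAAT as well as the E-box. A match is only a run of letters and says nothing on binding.

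In the branched-chain route, 6 of 13 enzymes were higher in total ChREBP-KO mice, 2 were lower and 5 did not pass the test, and the median difference was 0.13. Ivd, isovaleryl-CoA dehydrogenase, which carries out the dehydrogenation step of leucine breakdown, ran from 12.95 through a median of 13.24 to 13.38 in the 7 knockout mice and from 12.05 through 12.47 to 12.90 in the 7 WT samples. All knockout mice lay above all WT samples, and the WT sample nearest to them was replicate 2. The difference was 0.78 ± 0.10 (SE), a 1.71-fold higher level (adjusted p = 5.75e-07), and all 3 probes of Ivd passed the test with differences from 0.78 to 0.97. Acadsb, the short/branched-chain acyl-CoA dehydrogenase of isoleucine breakdown, ran from 11.29 through 11.45 to 11.75 in knockout and from 10.80 through 11.14 to 11.32 in WT mice, with 4 of 7 knockout mice above all WT samples. It differed by 0.43 ± 0.08 (adjusted p = 1.32e-04), and 2 of its 3 probes were called, with differences from 0.15 to 0.43 over the 3. The third acyl-CoA dehydrogenase of the route, Acad8, which acts on the valine skeleton, had a difference of -0.09 that did not pass the test.

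Aldh6a1, methylmalonate-semialdehyde dehydrogenase at the end of valine breakdown, ran from 14.37 through 14.53 to 14.66 in knockout and from 13.95 through 14.23 to 14.34 in WT mice. Mcee, the epimerase of methylmalonyl-CoA, ran from 12.05 through 12.15 to 12.43 and from 11.70 through 11.85 to 11.95. Neither enzyme showed any overlap between the groups. Aldh6a1 rose by 0.35 ± 0.06 (adjusted p = 6.28e-05) and Mcee by 0.35 ± 0.06 (adjusted p = 4.35e-05). Hibadh, the hydroxyisobutyrate dehydrogenase that precedes Aldh6a1, was higher by 0.24 ± 0.06, and Mccc2, a subunit of methylcrotonyl-CoA carboxylase, by 0.21 ± 0.07.

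Other steps of the same chains went the opposite way. Hibch, the hydrolase that releases hydroxyisobutyrate from CoA just before the Hibadh step, ran from 12.63 through 12.79 to 12.87 in knockout and from 12.89 through 12.95 to 13.15 in WT mice, a fall by 0.22 ± 0.05 (adjusted p = 3.11e-03) seen with all 4 of its probes. Pcca, the biotin-carrying subunit of propionyl-CoA carboxylase, ran from 10.58 through 10.83 to 10.94 and from 10.97 through 11.15 to 11.28. Its 7 knockout mice lay below all WT samples. Pcca differed by -0.34 ± 0.08 (adjusted p = 1.16e-03), whereas its partner subunit Pccb had a difference of -0.07 that did not pass the test. Mccc1, Auh and Mut, which code for the other carboxylase subunit, methylglutaconyl-CoA hydratase and methylmalonyl-CoA mutase, had differences of 0.13, 0.05 and 0.10 that did not pass the test. Other probes of these genes did pass. For Auh 2 of the 5 were called, and the 1 at 0.93 had all 7 knockout mice above all WT samples (adjusted p = 5.3e-10). For Mccc1 it was 1 of the 3, at 0.35, also with all 7 knockout mice above all WT samples. For Mut it was 1 of the 2, at 0.16, so that the probes disagree on the call.

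In the phenylalanine-tyrosine route, 2 of 5 enzymes were higher, none was lower and the median difference was 0.21. Hpd, the dioxygenase of hydroxyphenylpyruvate, ran from 15.39 through 15.63 to 15.93 in total ChREBP-KO and from 14.68 through 14.96 to 15.50 in WT mice, with 4 of 7 knockout mice above all WT samples. It rose by 0.55 ± 0.11 (adjusted p = 4.89e-04). Gstz1, the maleylacetoacetate isomerase, ran from 15.67 through 15.85 to 15.96 and from 15.41 through 15.66 to 15.83. The ranges overlapped, with 5 of 7 knockout mice above all WT samples, and the rise was 0.21 ± 0.06 (adjusted p = 1.22e-02). Tat, the aminotransferase that starts the route, had the largest difference in it, 0.60 ± 0.28, but its mice were so widely spread, from 13.93 to 15.70 among WT samples, that it did not pass the test (adjusted p = 0.109). Without WT replicate 2, which had the highest Tat among WT samples, the difference was 0.76 and passed. Fah, which completes tyrosine breakdown, had a difference of 0.18 and Hgd, homogentisate dioxygenase, of -0.25, neither of which passed the test. Hgd lay next to the threshold (adjusted p = 0.0544) and passed in 9 of 19 alternative settings.

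The 6 listed enzymes of the tryptophan route were split along its length, with 2 higher and 2 lower. Ido2, another enzyme of the first step that is counted with the companion steps outside the 49, did not follow this order. It was lower, at -0.68 (adjusted p = 5.55e-06). Tdo2, the dioxygenase that opens the indole ring, ran from 15.51 through 15.93 to 15.97 in total ChREBP-KO and from 14.11 through 15.04 to 15.39 in WT mice. All knockout mice lay above all WT samples. On the probe read for each gene, the rise by 0.96 ± 0.19 was the largest of the 49 enzymes, a 1.95-fold higher level (adjusted p = 2.82e-04). Afmid, the formamidase that then yields kynurenine, ran from 11.30 through 11.67 to 11.93 and from 10.54 through 10.95 to 11.88. One WT sample reached the upper knockout range, and 1 of 7 knockout mice lay above it. The difference was 0.57 ± 0.17 (adjusted p = 1.33e-02).

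The later steps of the route were lower or did not pass the test. Haao, the dioxygenase whose product leads to quinolinate, ran from 14.63 through 14.81 to 14.99 in knockout and from 15.17 through 15.28 to 15.62 in WT mice. The groups did not overlap, and Haao fell by 0.48 ± 0.07 (adjusted p = 6.31e-06), with both of its probes called. Kynu, kynureninase, ran from 11.40 through 11.65 to 12.02 and from 11.95 through 12.11 to 12.39, with 6 of 7 knockout mice below all WT samples and a difference of -0.44 ± 0.09 (adjusted p = 2.75e-04). Kmo, kynurenine monooxygenase, had a difference of -0.17 and Acmsd, the decarboxylase that draws carbon away from NAD synthesis, of -0.55 ± 0.29, and neither passed the test. Acmsd ran from 7.61 to 9.10 in knockout and from 8.21 to 9.70 in WT mice, so that most of its mice overlapped. The plot of the kynurenine steps shows the change of sign over the listed enzymes, and Ido2 is not drawn in it.

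**Figure D2:**
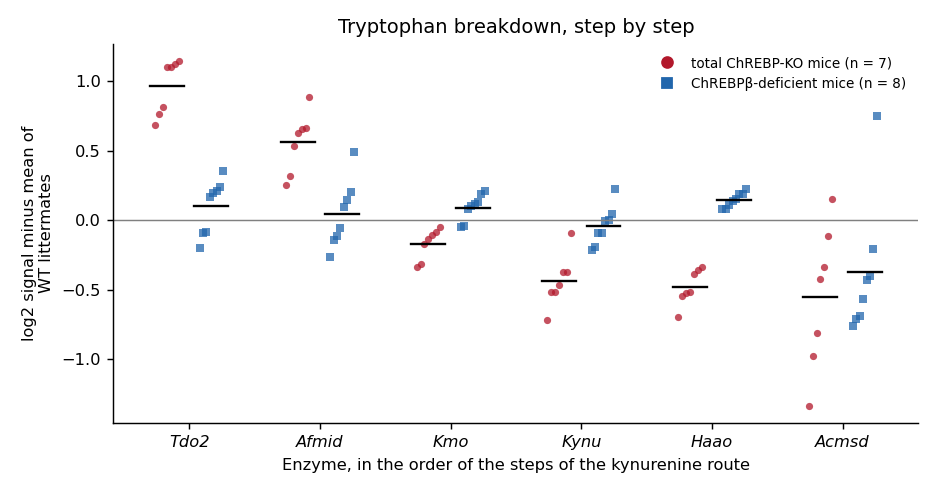
Log2 signal of each knockout mouse minus the mean of its WT littermates for the 6 tryptophan enzymes in the order of their steps, with black lines at the group means (circles, 7 total ChREBP-KO mice; squares, 8 ChREBPβ-deficient mice). Total ChREBP-KO mice lie above 0 for Tdo2 and Afmid and below 0 for Kmo, Kynu and Haao, whereas ChREBPβ-deficient mice scatter around or near 0 except for the widely spread Acmsd.

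In the serine-glycine-threonine route, 1 of 9 enzymes was higher and 2 were lower, and the median difference was 0.04. Sardh, the sarcosine dehydrogenase that yields glycine in mitochondria, ran from 14.38 through 14.59 to 14.80 in knockout and from 13.98 through 14.13 to 14.61 in WT mice. The single high WT sample was replicate 2, and Sardh rose by 0.43 ± 0.08 (adjusted p = 2.67e-04). Dmgdh, which supplies sarcosine, had a difference of 0.23 that did not pass the test.

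Gldc, the decarboxylating subunit of the glycine cleavage system, ran from 12.92 through 13.26 to 13.65 in knockout and from 13.39 through 13.75 to 13.98 in WT mice, with 6 of 7 knockout mice below all WT samples. It fell by 0.44 ± 0.13 (adjusted p = 1.23e-02), while Amt, another subunit of that system, had a difference of 0.04 that did not pass. The other probe of Gldc, at -0.66, did not pass either (adjusted p = 0.181). Sdsl, a paralog of serine dehydratase, ran from 10.93 through 11.11 to 11.78 and from 11.31 through 11.65 to 12.28, and its difference of -0.42 ± 0.16 lay next to the threshold (adjusted p = 4.58e-02). Its other probe, at -0.40, did not pass (adjusted p = 0.0519). Sds itself, serine dehydratase, spanned 10.94 to 12.61 in knockout and 10.45 to 12.95 in WT mice and had a difference of -0.05 ± 0.41. For the serine hydroxymethyltransferases Shmt1 and Shmt2 and for threonine dehydrogenase, Tdh, the differences of 0.02, 0.06 and 0.17 did not pass the test.

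All 3 enzymes of the lysine route were higher in total ChREBP-KO mice, with a median difference of 0.40. Aass, the synthase that opens the saccharopine pathway, ran from 14.17 through 14.59 to 14.72 in knockout and from 13.51 through 14.17 to 14.46 in WT mice. Replicate 1 was the only knockout mouse within the WT range, and Aass rose by 0.54 ± 0.14 (adjusted p = 3.80e-03). Aadat, the aminoadipate aminotransferase that also acts on kynurenine, ran from 12.32 through 12.67 to 12.82 and from 11.80 through 12.10 to 12.60, with 4 of 7 knockout mice above all WT samples and a rise by 0.40 ± 0.11 (adjusted p = 5.25e-03). Gcdh, glutaryl-CoA dehydrogenase, ran from 13.58 through 13.84 to 13.99 and from 13.38 through 13.52 to 13.79. It overlapped in part, with 5 of 7 knockout mice above all WT samples, and rose by 0.27 ± 0.06 (adjusted p = 1.64e-03).

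In the proline route, Aldh4a1, the dehydrogenase that turns the product of both proline and hydroxyproline oxidation into glutamate or its hydroxy form, ran from 15.29 through 15.50 to 15.55 in knockout and from 14.79 through 15.19 to 15.41 in WT mice. It rose by 0.36 ± 0.09 (adjusted p = 2.43e-03), and 5 of 7 knockout mice lay above all WT samples. Prodh, proline dehydrogenase, and Prodh2, its hydroxyproline counterpart, had differences of 0.08 and 0.21 that did not pass the test. In the histidine route, Amdhd1, the imidazolonepropionase, was the only called enzyme of 4. It ran from 11.47 through 11.78 to 12.16 in knockout and from 11.79 through 12.16 to 12.42 in WT mice, overlapped in part, and fell by 0.31 ± 0.12 (adjusted p = 4.13e-02). The other probe of Amdhd1, at -0.15, did not pass (adjusted p = 0.358). Hal, which deaminates histidine, Uroc1, urocanate hydratase, and Ftcd, which passes the formimino group to folate, had differences of 0.15, 0.22 and -0.14 that did not pass.

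Among the enzymes of glutamate, alanine and aspartate, the cytosolic aminotransferases moved apart. Gpt, which exchanges alanine and pyruvate, ran from 15.57 through 15.75 to 15.95 in knockout and from 14.67 through 14.89 to 15.41 in WT mice. The groups did not overlap, and Gpt rose by 0.78 ± 0.09, a 1.72-fold higher level (adjusted p = 1.65e-07). Got1, which exchanges aspartate and oxaloacetate and serves the malate-aspartate shuttle, ran from 12.15 through 12.24 to 12.79 in knockout and from 12.92 through 13.16 to 13.72 in WT mice. It did not overlap either, fell by 0.86 ± 0.21, a 1.82-fold lower level (adjusted p = 2.61e-03), and all 3 of its probes were called lower.

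Their mitochondrial counterparts had smaller differences. Got2 ran from 14.77 through 14.88 to 14.94 in knockout and from 14.61 through 14.70 to 14.86 in WT mice, and its rise by 0.13 ± 0.05 lay next to the threshold (adjusted p = 4.00e-02). Gpt2 had a difference of -0.12, Glud1, glutamate dehydrogenase, of -0.10 and Gls2, liver glutaminase, of -0.12 ± 0.25, and none of these passed the test. Gls2 ran from 13.65 to 15.22 among WT samples.

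**Figure D3:**
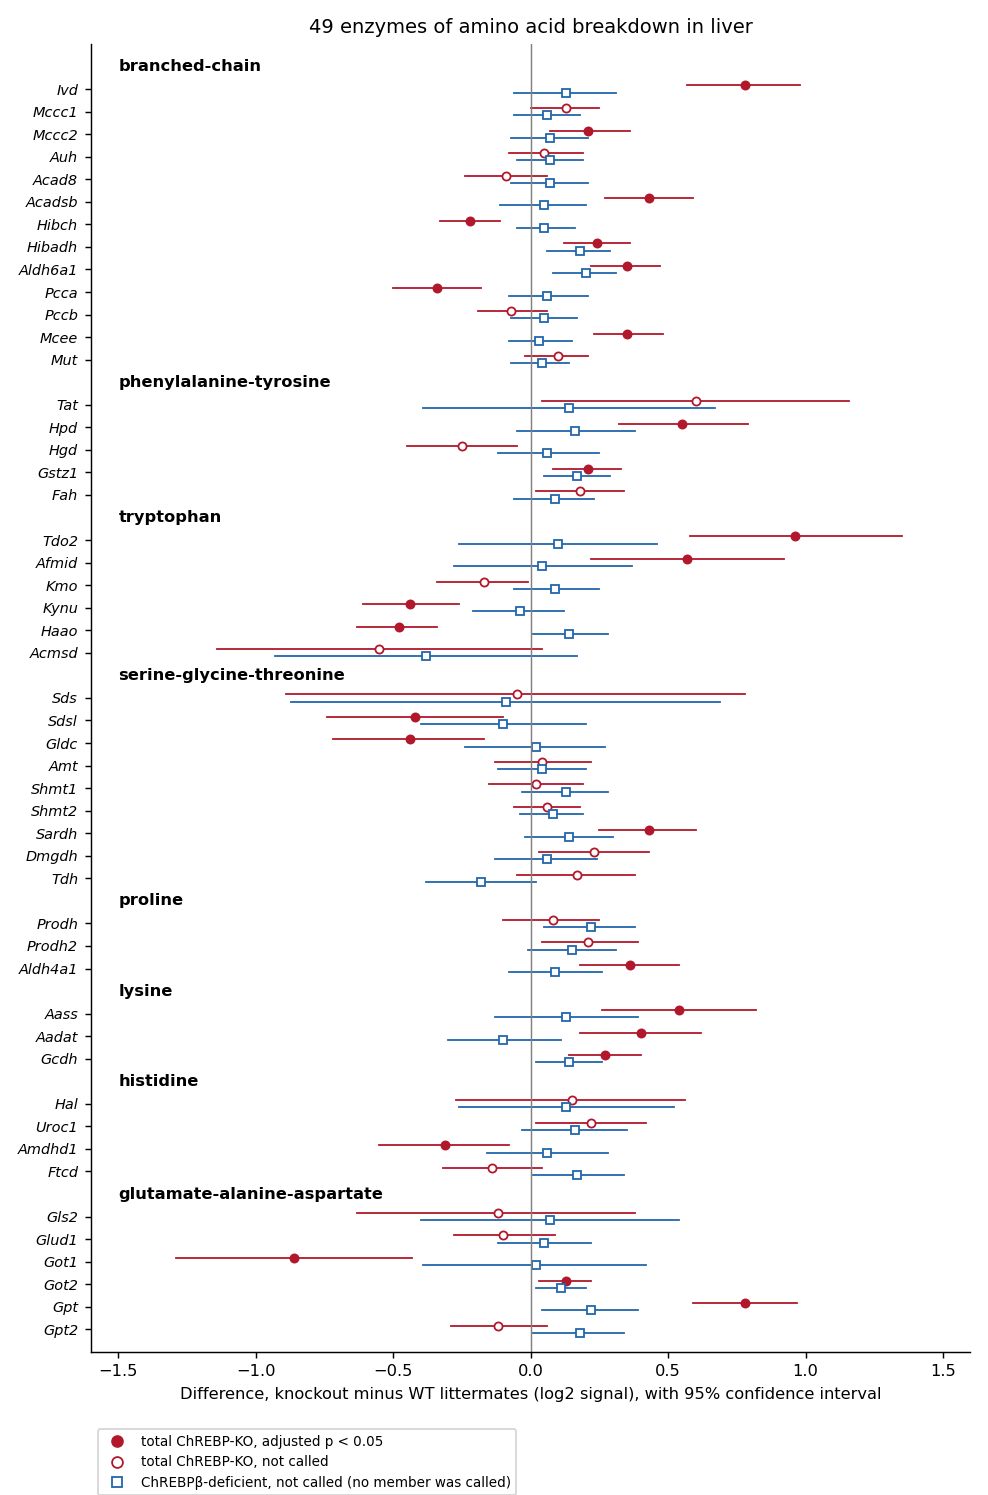
Difference between knockout mice and WT littermates in log2 signal for the 49 enzymes by route, with 95% confidence intervals from limma (circles, total ChREBP-KO, filled where the adjusted p was under 0.05; squares, ChREBPβ-deficient). In total ChREBP-KO mice 17 circles are filled to the right of 0 and 8 to the left, with Tdo2, Ivd and Gpt farthest right and Got1 farthest left, and no square is filled.

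Set side by side, the routes differed in how their members were distributed. The lysine route had the highest median, 0.40 with 3 of 3 enzymes higher, followed by phenylalanine-tyrosine and proline at 0.21 each, with 2 of 5 and 1 of 3 higher and none lower. The branched-chain route had a median of 0.13 with 6 of 13 higher and 2 lower. The median was 0.04 in the serine-glycine-threonine route, 0.00 in the histidine route, -0.11 in the glutamate-alanine-aspartate route and -0.30 in the tryptophan route. Each of these held called members that fell, as did the branched-chain route. Of all genes 13.5% were called higher and 14.1% lower, so that 1 or 2 calls in a short route say little. These medians are descriptions of small lists, and differences between routes were not tested.

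The direction of all 25 calls held within each scan day, where 15 and 9 of the 25 passed the test with 3 or 4 mice a group. The 25 were called with these same mice, so that keeping their direction in each part is not independent support. With slide as a fixed block, 18 of the 25 remained, 11 higher and 7 of the lower members, and Aass, Afmid, Aldh4a1, Got2, Gstz1, Hibch and Mccc2 no longer passed. Several measurements moved with the comparison. Pericentral hepatocyte markers were higher for 6 of 10 genes and lower for none, with a summed log2 signal of 18.45 to 18.89 in knockout against 17.77 to 18.32 in WT mice, and periportal markers were higher for 2 of 8 and lower for 1. Such sums add linear signals and weigh the strongest gene most, among the pericentral markers Cyp2e1 with means of 18.27 and 17.58. The called markers Oat and Slc1a2 are also counted below, among the companion steps and the transporters. Stellate cell markers were higher for 2 of 5, with sums of 14.29 to 15.09 against 13.92 to 14.40. Dbp, a clock output gene, ran from 12.23 to 14.04 in knockout and from 9.05 to 10.95 in WT mice, without overlap. With the Dbp signal as a covariate, 19 of the 25 calls remained, and Aadat, Amdhd1, Gldc, Got2, Gstz1 and Mccc2 no longer passed. Exocrine pancreas transcripts stood apart in WT replicate 2 and in WT replicates 7 and 8, where Cela3b reached 10.41 against a median of 5.48 in these WT samples and at most 5.50 in each of the other groups. Without these samples 22 of the 25 calls remained, and Amdhd1, Gldc and Sdsl were lost. The part of zonation, of stellate cells and of the clock genes in the result was not tested, and in whole liver fewer cells of a type and less RNA per cell cannot be told apart.

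None of the 49 enzymes was called in ChREBPβ-deficient mice against their WT littermates. Across all genes 0.00417% were called, which is 1 gene, Mlxipl itself. At an unadjusted p under 0.05, 10 of the 49 enzymes and 4.95% of all genes passed. An exact Mann-Whitney test with the same adjustment called 0 of the 49, but it called 0 of all probes tested. Even Mlxipl, for which all 8 knockout mice lay below all WT mice, was not called, so that this test says nothing on the enzymes. The knockout and WT mice overlapped for all 49 enzymes, and 0.0125% of all genes lay higher and 0.0209% lower without overlap. The differences were small and mostly positive, above 0 for 43 enzymes and below 0 for 6, with a median of 0.07 against 0.00 over all genes, and with scaling to the 75th percentile in place of quantile normalization the median was 0.04 with 40 above 0. All 13 branched-chain enzymes had differences above 0, from 0.03 to 0.20.

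The lowest unadjusted p belonged to Aldh6a1, which ran from 14.49 through 14.64 to 14.75 in ChREBPβ-deficient and from 14.34 through 14.42 to 14.60 in WT mice, with 6 of 8 knockout mice above all WT mice and a difference of 0.20 with a 95% confidence interval from 0.08 to 0.31 (adjusted p = 0.837). Gpt, at 15.39 to 15.67 against 15.07 to 15.50, had a difference of 0.22 with an interval from 0.04 to 0.39. Hibadh, Gstz1, Prodh, Got2, Gcdh, Gpt2, Haao and Ftcd were the other 8 enzymes at an unadjusted p under 0.05, each with a difference above 0. For Tdo2 and Got1 the differences were 0.10, with an interval from -0.26 to 0.46, and 0.02, with an interval from -0.39 to 0.42.

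The effects in the lines were compared with each other by their difference, that is, by subtracting the log2 change of the β line from that of the total line. It was called for 6 enzymes above 0 and 5 below 0, where 6.76% and 7.94% of all genes were called. Above 0 were Ivd (0.65 ± 0.13, adjusted p = 1.14e-03), Gpt (0.57 ± 0.13, adjusted p = 2.38e-03), Mcee (0.32 ± 0.08), Acadsb (0.38 ± 0.11), Aadat (0.50 ± 0.15) and Tdo2 (0.86 ± 0.26, adjusted p = 2.33e-02). Below 0 were Haao (-0.63 ± 0.10, adjusted p = 3.87e-05), Pcca (-0.40 ± 0.10), Hibch (-0.27 ± 0.07), Kynu (-0.39 ± 0.12) and Got1 (-0.88 ± 0.29, adjusted p = 3.85e-02). For the other 14 enzymes called in total ChREBP-KO mice, among them Aldh6a1, Hibadh, Gstz1 and Got2, the difference of effects did not pass the test. With a fold of at least 1.5 required as well, 2 enzymes were called above 0 and 2 below 0, against 2.14% and 3.41% of all genes, and at an unadjusted p under 0.05 it was 23 of the 49 against 27.1%. With slide as a fixed block 7 of the 11 calls remained, and Got1, Hibch, Kynu and Pcca no longer passed. In the main fit, no other probe of Got1, Hibch, Acadsb or Kynu passed the test of the difference, and the other probes of Pcca were split. For Auh, which was not called on the probe read, other probes passed at 0.89 (adjusted p = 1.15e-06) and 0.49.

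The WT littermates of the lines differed as well, and mostly one way. In WT mice of the total line 15 enzymes were lower than in WT mice of the β line and none was higher, where 8.48% and 6.73% of all genes were called, and 44 of the 49 differences were below 0 with a median of -0.20 against 0.01 over all genes. Aldh4a1 was 15.08 ± 0.25 against 15.54 in the β line, a difference of -0.46 ± 0.08 (adjusted p = 4.18e-04), Prodh differed by -0.44 ± 0.08 (adjusted p = 4.70e-04), Aass by -0.46 ± 0.13 and Got1 by -0.72 ± 0.20. Prodh was the only enzyme whose WT groups did not overlap, with 13.04 to 13.54 in the total line and 13.59 to 13.88 in the β line, and 0.747% of all genes lay higher and 1.43% lower without overlap. With a fold of at least 1.5 required as well, Got1 was the 1 enzyme called lower and 0 were higher, against 1.73% and 0.985% of all genes, and at an unadjusted p under 0.05, 27 of the 49 enzymes and 29.3% of all genes passed. In the branched-chain route 6 of 13 enzymes were lower, Mccc2, Acad8, Mut, Aldh6a1, Pcca and Auh, and the others were Gstz1, Sardh, Gcdh, Got2 and Gpt.

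The WT littermates of the total line lay below the WT mice of the β line for all 17 enzymes called higher in total ChREBP-KO mice, for 6 of the 8 called lower and for 21 of the 24 not called. The same WT samples enter both comparisons, so that the 17 of 17 is a description. The mean of the knockout mice exceeded the mean of the β-line WT mice for 12 of the 17. Gpt was 15.78 in knockout, 15.00 in WT littermates and 15.31 in β-line WT mice, whereas Aldh4a1 was 15.44, 15.08 and 15.54. All 8 enzymes called lower lay below the β-line WT mice as well, with a median distance of -0.54, and Got1 was 12.44, 13.30 and 14.02. Line and any other difference between these groups cannot be told apart. Red blood cell transcripts, summed over 4 genes, ran from 16.83 to 17.33 in WT mice of the total line against 15.50 to 16.57 in the β line. Of the pericentral markers 2 of 10, Oat and Cyp2e1, were lower in the total line, with sums of 17.77 to 18.32 against 18.25 to 18.64. Of the adipocyte list, 1 of 4 genes was called, Cidec at -1.99, while Cfd, Plin1 and Lep differed by -1.70, 0.17 and 0.02. Of the exocrine pancreas list, 1 of 5 was called, Cela2a at 1.91, from 8.99 to 13.50 against 7.51 to 8.84. The part of these transcripts in the result was not tested. The 15 calls fell to 4 with slide as a block and to 0 within the second scan day, where all 15 kept their sign. The samples of that day are part of those that gave the 15 calls.

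**Figure D4:**
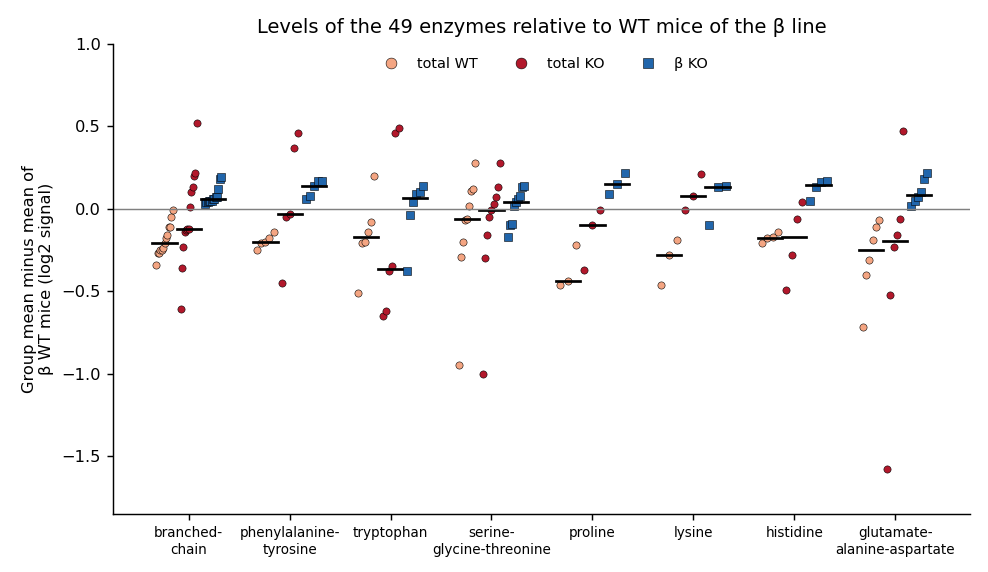
Mean log2 signal of each of the 49 enzymes in total WT, total KO and β KO mice minus its mean in β WT mice, by route, with lines at the route medians (n = 7, 7, 8 and 8 samples). Total WT points lie below 0 for 44 of the 49 enzymes, β KO points lie close to 0, and total KO points spread to both sides.

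The enzymes also differed in how much they varied between mice of 1 group. Sds ran from 10.51 to 14.06, Acmsd from 7.77 to 10.07, Gls2 from 13.73 to 15.83 and Tat from 14.13 to 15.95 among the 8 WT mice of the β line, whereas Pccb ran from 9.02 to 9.30 and Got2 from 14.84 to 14.99. The wide spread was carried in part by single mice. Replicate 2 of the β-line WT mice was the highest of its group for 28 of the 49 enzymes, replicate 2 of the total-line WT samples for 26 and replicate 2 of the ChREBPβ-deficient mice for 22, where an even share would be 6.1 of 49 in groups of 8 and 7 in groups of 7. In total ChREBP-KO mice, replicate 1 was the lowest for 27 enzymes and replicate 8 the highest for 19. The plot by sample marks the mice numbered 2 for chosen examples. Among these, Sdsl and Amdhd1 are also flagged below for replicate 2, and Amdhd1 varied less than Acmsd, which is not drawn.

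**Figure D5:**
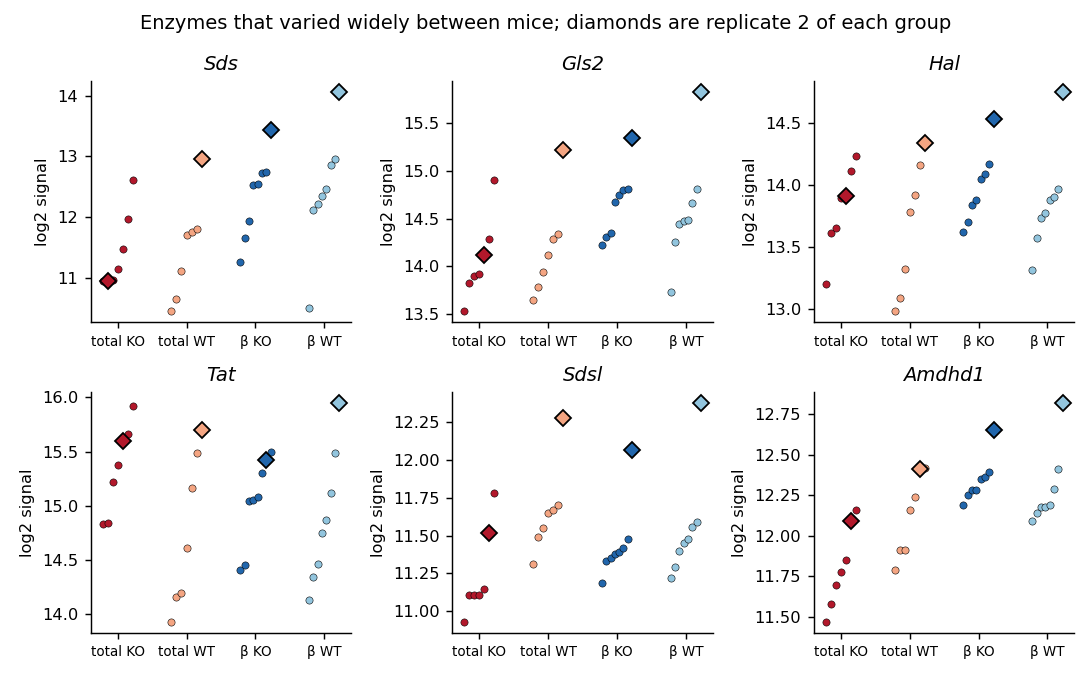
Log2 signal by sample of Sds, Gls2, Hal, Tat, Sdsl and Amdhd1 in the 4 groups (n = 7, 7, 8 and 8), with replicate 2 of each group drawn as a diamond. In these chosen examples, replicate 2 is the highest point of the β WT group in all 6 plots and of the total WT group in 5 of them, and it is not the highest point of the total KO group in any of them.

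Of 25 companion steps of amino acid breakdown outside the 49, 10 were higher and 4 lower in total ChREBP-KO mice, against 13.5% and 14.1% of all genes, so that the share called lower was close to the background. None was called in ChREBPβ-deficient mice. Higher were Oat, the ornithine aminotransferase, by 0.81, and Agxt, which transaminates glyoxylate and serine, by 0.73, as were Aldh7a1, Dhtkd1 and Pipox of lysine breakdown by 0.39, 0.55 and 0.38. Hsd17b10, a dehydrogenase of isoleucine breakdown, was higher by 0.46 and Echs1, a hydratase shared by the isoleucine and valine chains, by 0.21, Gcsh of glycine cleavage by 0.28 and Mmab, which makes the cofactor of Mut, by 0.48. Lower were Aspg, an asparaginase, at -1.29 ± 0.12, Ido2 and Qprt of the tryptophan route at -0.68 and -0.32, and Ddc, the aromatic amino acid decarboxylase, at -0.49.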

How the data were processed

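Liver RNA was measured on 31 one-color Agilent arrays on 15 slides, read on 2 scan days that each held all 4 groups. The authors deposited scanner output of Agilent Feature Extraction 10.10.1.1, whose median signals are linear intensity values, and a table of log2 values that the authors had quantile normalized. From the deposited intensity files, spots were kept where the authors' spot quality rule was met on at least 26 arrays or on 6 arrays of 1 group, quantile normalization was applied to log2 median signals of all 31 arrays, and the median was taken over spots that share a probe name. This gave 36059 probes from 34131 to 38612 passing spots per array, and the bulk of differences from the deposited log2 table lay between -0.027 and 0.0302. The number of samples limits the precision.

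Groups came from the labels. WT replicates 7 and 8 of the total line were averaged, so 30 samples entered the fit in place of the 31 arrays planned. Where samples of a group are not separate mice, p-values measure technical spread only. All groups entered 1 model (limma 3.58.1 in R 4.3.3, lmFit and eBayes) with contrasts for each knockout against its WT littermates, for the difference of these effects and between the WT groups, with Benjamini-Hochberg adjustment over all probes. Enzymes given in full were, per route, those called in total ChREBP-KO mice with the largest absolute log2 difference, up to 4 in the branched-chain and serine-glycine-threonine routes and up to 3 in the others, and others were named with their difference and call, with ranges added for enzymes called in the difference of effects. The members and lists were chosen with earlier results of these data known. Some members of the companion lists are counted but not reported here by name. The code was tested on simulated data. Alternatives were other scalings, background corrections and filters, slide, scan day, replicate number and Dbp as terms, other tests and leaving out each sample. Those counting WT replicates 7 and 8 as 2 samples, leaving out samples with pancreatic transcripts, taking each scan day alone and adding Dbp were chosen after seeing the data.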

Additional observations from a re-analysis of the deposited data

Results flagged for a closer look

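The effect of the knockout differed between the total and the β line for 11 enzymes, by the test of the difference itself in limma. Each is read by its probe with the highest mean signal, and for Got1, Hibch, Acadsb and Kynu no other probe passed. The log2 change in total ChREBP-KO mice minus that in ChREBPβ-deficient mice was 0.86 for Tdo2, 0.65 for Ivd, 0.57 for Gpt, 0.50 for Aadat, 0.38 for Acadsb and 0.32 for Mcee, and it was -0.88 for Got1, -0.63 for Haao, -0.40 for Pcca, -0.39 for Kynu and -0.27 for Hibch.

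A sample stood far from the rest of its group in 14 of 196 group and enzyme pairs, and chance alone sets about 1 in 20 apart. Replicate 2 of the β-line WT mice was the highest for Hpd at 15.75, Hal at 14.75, Amdhd1 at 12.82 and Sdsl at 12.38 and the lowest for Glud1 at 16. Replicate 2 of the ChREBPβ-deficient mice was the highest for Amdhd1 at 12.65, Sdsl at 12.07 and Acmsd at 9.50. Replicate 2 of the total-line WT samples was the highest for Sardh at 14.61 and Sdsl at 12.28, and total ChREBP-KO replicate 1 was the lowest for Aass at 14.17 and Mut at 12.70. The others were Auh at 12.26, the lowest, in ChREBPβ-deficient replicate 8 and Tdh at 6.21, the highest, in total ChREBP-KO replicate 6.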

How the results depend on the processing

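All 25 calls in total ChREBP-KO mice kept their direction with slide, replicate number or Dbp as a term, without the samples with pancreatic transcripts and within each scan day. These fits share samples with the main fit, so that the agreement is not independent. With slide as a fixed block 11 enzymes were higher, and 4 in place of 15 were lower between the WT groups, where an exact Mann-Whitney test gave 9. With a fold change of at least 1.5, 3 were higher and 1 lower in total ChREBP-KO, 2 and 2 in the difference of effects and 1 lower between WT groups. Without the samples with pancreatic transcripts 10 enzymes were called above 0 in the difference of effects. Within the first scan day 11 were higher and 4 lower in total ChREBP-KO, 0 and 2 in the difference of effects and 9 lower between WT groups, and within the second 9 and 3, 2 and 1, and 0. The cause of these changes was not tested, but each scan day holds fewer samples. The branched-chain median in total ChREBP-KO was 0.22 with probes passing on all arrays and 0.21 within the second scan day, and the glutamate-alanine-aspartate median was 0.08 there. In the β line the latter was 0.20 within the first scan day, and the serine-glycine-threonine median was -0.06 within the second.

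With the replicate number as a block, 25 enzymes were called in total ChREBP-KO mice, 24 of them shared, 12 in the difference of effects, 10 of them shared, and 0 in the β line. The numbers were not taken as pairs in the main fit. Correlations of same-numbered mice ran from -0.21 to 0.24 in the total line. In the β line they ran from -0.16 to 0.53, with 6 of 8 over 0.1, so that they give no ground against pairs in that line. The WT comparison could not be fitted with the block.

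Leaving out each sample in turn gave 15 to 21 higher and 6 to 9 lower enzymes in total ChREBP-KO, 0 to 0 in the β line, 6 to 9 and 4 to 8 in the difference of effects (8 without total KO replicate 7) and 13 to 20 lower between WT groups. Sdsl lost its call in 18 of these 30 fits, Amdhd1 and Got2 in 9 each, Mccc2 in 6 and the difference of effects for Got1 in 15. The differences that changed sign were all of enzymes that did not pass the test. Shmt1 was -0.04 with processed signals and -0.02 with median signals scaled to the 75th percentile, -0.04 within the first scan day and from -0.04 to 0.06 leaving out single samples. Amt was -0.04 with the slide block and -0.07 within the first scan day, where Glud1 was 0.12. Hal was -0.11 with the slide block and -0.02 with the replicate block and with Dbp, which gave -0.06 for Auh and -0.01 for Shmt2. Sds was 0.29 and Gls2 0.10 without the samples with pancreatic transcripts, and they ranged from -0.25 to 0.19 and from -0.26 to 0.05 leaving out single samples. Within the second scan day Sds was 0.09, Gls2 0.12, Auh -0.07, Shmt2 -0.08 and Gpt2 0.05.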

Other observations

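Amino acid transporters and synthesis enzymes were measured beside the breakdown enzymes. Of 12 transporters, 5 were higher and 3 lower in total ChREBP-KO mice, where 13.5% and 14.1% of all genes were called. Higher were Slc1a2, a glutamate transporter, by 1.28 ± 0.14 (log2, SE), Slc16a10, which carries aromatic amino acids, by 0.86 ± 0.14, Slc38a4, a neutral amino acid transporter, by 0.85 ± 0.12, Slc43a1, which carries branched-chain and other large neutral amino acids, by 0.68 ± 0.15 and Slc6a12, the betaine transporter, by 0.35 ± 0.07. Lower were Slc3a1, a subunit of the cystine and dibasic amino acid transporter, Slc25a22, a mitochondrial glutamate carrier, and Slc25a15, the mitochondrial ornithine carrier, at -0.65, -0.54 and -0.29. Slc3a1 lay next to the threshold (adjusted p = 0.0495).

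Of 8 enzymes of amino acid synthesis, 3 were lower and 1 was higher. Among the lower ones, Aldh18a1, which acts on glutamate at the start of proline synthesis, had a difference of -1.19 ± 0.24, and Psph, the last step of serine synthesis, of -0.37 ± 0.12. Aldh18a1 was 7.11 in knockout, 8.29 in WT littermates and 6.90 in β-line WT mice, and Psph was 10.26, 10.62 and 10.21. Both were called higher in WT mice of the total line than of the β line, by 1.40 (adjusted p = 1.58e-04) and 0.42 (adjusted p = 0.0157) in limma. Asns, asparagine synthetase, was higher by 1.41 ± 0.52 (adjusted p = 0.0405), with the widest error of the list. None of these transporters and enzymes was called in ChREBPβ-deficient mice.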
